A study of Mus musculus with 8 samples.

Results

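The hippocampus of the mouse is still being built at postnatal day 3 and is adult at week 8, and 4 RNA-seq libraries followed that interval in offspring of dams injected with normal saline (NS). They are the NS libraries of a series of 8, 2 of them from postnatal day 3 and 2 from week 8. The other 4 libraries, from offspring whose dams received dexamethasone at 1 mg/kg per day (IUGR), entered here to estimate the spread between replicates and for 1 test of whether the ages differed by treatment. All mice were labelled C57BL/6J, wildtype and male, and the saline injections began at 14.5 days post coitum and ran for 5 days. The saline animals are the vehicle controls of the series, so their dams were handled and injected, and untreated dams are not part of the comparison. The labels do not say whether a library came from 1 animal or from pooled tissue, nor whether the 2 libraries of an age are biologically separate. All p-values below rest on how far these particular libraries differ within a group. Whether that spread is technical alone at week 8 was not tested. The 2 NS libraries of week 8 held 84229 and 900 counts of Ttr, a choroid plexus gene, and those of IUGR 654 and 324. The 2 day 3 libraries of each treatment differed in Xist and Y-linked counts as repeats of 1 RNA would not.

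Hippocampal neurons are born from radial glia, which divide along the ventricle and later in the dentate gyrus, and each newborn neuron passes through a migrating, axon-growing state before it forms synapses. Astrocytes mature and oligodendrocytes wrap axons in myelin after most neurons are in place. Several protein families replace a member used by young neurons with another used by adult ones, as in NMDA receptors, sodium channels and tubulins.

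The 4 libraries held between 13030277 and 18993050 counted reads. Levels are given as CPM, the raw count as a share of the library total scaled to 1000000 counts, always in the order day 3 replicate 1, day 3 replicate 2, week 8 replicate 1, week 8 replicate 2. Changes are log2 fold changes, week 8 minus day 3, with their standard error (±) and the Benjamini-Hochberg adjusted p of edgeR's quasi-likelihood test, and a gene with an adjusted p under 0.05 is said to be called, or to have risen or fallen. The test was run with both week 8 libraries and then with week 8 replicate 1 alone and with week 8 replicate 2 alone. Because the libraries are of whole tissue, fewer cells of a type and less RNA per cell cannot be told apart.

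The libraries differed within an age before any comparison was made. The 2 day 3 libraries correlated at 0.988 over log2 CPM, with 1.08% of genes at least 2-fold apart, and the 2 week 8 libraries at 0.909, with 24.6% of genes at least 2-fold apart. Rpph1, the RNA of ribonuclease P, took 7.44, 6.39 and 7.69% of counts in the first 3 libraries and had no count in week 8 replicate 2. Genes of the replication-dependent histones took 0.472, 0.414, 0.129 and 0.0073% of counts. Day 3 replicate 2 went against its male label, with 4998 counts of Xist and 34 counts over 4 Y-linked genes, against at most 12 and at least 2538 in the other 3 libraries. Day 3 replicate 2 of IUGR did the same, with 5130 counts of Xist and 74 over the Y-linked genes. Choroid plexus RNA also moved with single libraries: Ttr, its transthyretin gene, stood at 63.1, 6047, 6464 and 47.4 CPM, and none of 17 choroid plexus markers was called. The part of these differences in the results below was not tested, and the main results are given against both week 8 libraries and against each alone.

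Windows of the cell-division genes are shown first, because most of these genes fell and their promoters are known to share short motifs. The CCAAT box binds the factor NF-Y, and the cell cycle homology region (CHR) binds the complexes that silence division genes in resting cells. Of the 30 genes in the proliferation list, 26 had an entry in RefSeq's promoter table (GRCm38.p6). They are not the same 26 as those that fell with both week 8 libraries, since Aurka, Plk1 and E2f1 had windows and were not called. The 250 bases before the transcription start are printed for 3 genes whose window held both motifs and for Rrm2, which held CCAAT alone. They lie at chr10:69352913-69353162 (Cdk1, minus strand), chr11:99024190-99024439 (Top2a, minus strand), chr4:118437344-118437593 (Cdc20, minus strand) and chr12:24708004-24708253 (Rrm2, plus strand), each read 5′ to 3′ on the gene's strand. Capitals mark CCAAT or its reverse ATTGG, and the CHR core TTTGAA or its reverse TTCAAA.
Cdk1: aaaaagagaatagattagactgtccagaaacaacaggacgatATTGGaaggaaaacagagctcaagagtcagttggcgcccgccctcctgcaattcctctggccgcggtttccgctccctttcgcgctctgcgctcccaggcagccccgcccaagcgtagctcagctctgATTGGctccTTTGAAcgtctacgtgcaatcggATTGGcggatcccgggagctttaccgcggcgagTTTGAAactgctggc
Top2a: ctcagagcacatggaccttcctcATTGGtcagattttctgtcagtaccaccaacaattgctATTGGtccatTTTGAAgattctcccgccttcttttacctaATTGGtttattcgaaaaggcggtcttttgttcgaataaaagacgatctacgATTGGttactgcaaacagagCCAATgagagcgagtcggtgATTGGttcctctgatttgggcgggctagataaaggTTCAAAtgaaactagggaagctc
Cdc20: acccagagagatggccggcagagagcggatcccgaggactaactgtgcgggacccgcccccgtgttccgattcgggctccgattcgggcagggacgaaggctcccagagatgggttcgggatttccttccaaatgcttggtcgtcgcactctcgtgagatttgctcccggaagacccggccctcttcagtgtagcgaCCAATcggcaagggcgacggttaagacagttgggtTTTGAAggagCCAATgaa
Rrm2: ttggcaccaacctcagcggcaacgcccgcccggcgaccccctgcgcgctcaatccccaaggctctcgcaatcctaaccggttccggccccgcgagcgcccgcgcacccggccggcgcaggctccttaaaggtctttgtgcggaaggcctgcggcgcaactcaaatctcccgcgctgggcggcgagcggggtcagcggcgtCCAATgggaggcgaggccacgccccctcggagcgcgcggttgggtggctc
CCAAT on either strand occurred in the windows of 23 of the 26 genes (88.5%), against 39% of 17224 genes in the same windows. The CHR core occurred in 8 of the 26 (30.8%), against 16% of all genes, and both motifs stood together in 1 window in 8 (30.8%), against 5.89%. The E2F motif TTTCCCGC occurred in 1 of the 26 (3.85%), against 1.31% of all genes. These are matches of letters and were not tested as sites.

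With both week 8 libraries, 2263 of 15999 tested genes (14.1%) were called, 1232 higher (7.7%) and 1031 lower (6.44%) at week 8. Of these, 2013 changed at least 2-fold, and 411 at least 8-fold, 242 higher and 169 lower. The comparisons with 1 week 8 library share both day 3 libraries with this one and with each other, so their agreement is no independent support. Of the 2263, 1784 (78.8%) were at least 2-fold apart from day 3 against each week 8 library. By the test, 1155 (51%) were also called against week 8 replicate 1 alone and 2005 (88.6%) against week 8 replicate 2 alone. The comparison with replicate 1 alone called 1315 of 16446 genes (8%), and that with replicate 2 alone 3801 of 16562 (23%). Called the same way in all 3 comparisons were 1077 genes (6.73%), 597 higher and 480 lower, while 180 genes called with both libraries were called against neither alone. No gene was called in opposite directions against the 2 libraries, although 245 genes were at least 2-fold higher against one and at least 2-fold lower against the other. At unadjusted p under 0.05, 4304 genes passed against replicate 1 alone and 7049 against replicate 2 alone.

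**Figure D1:**
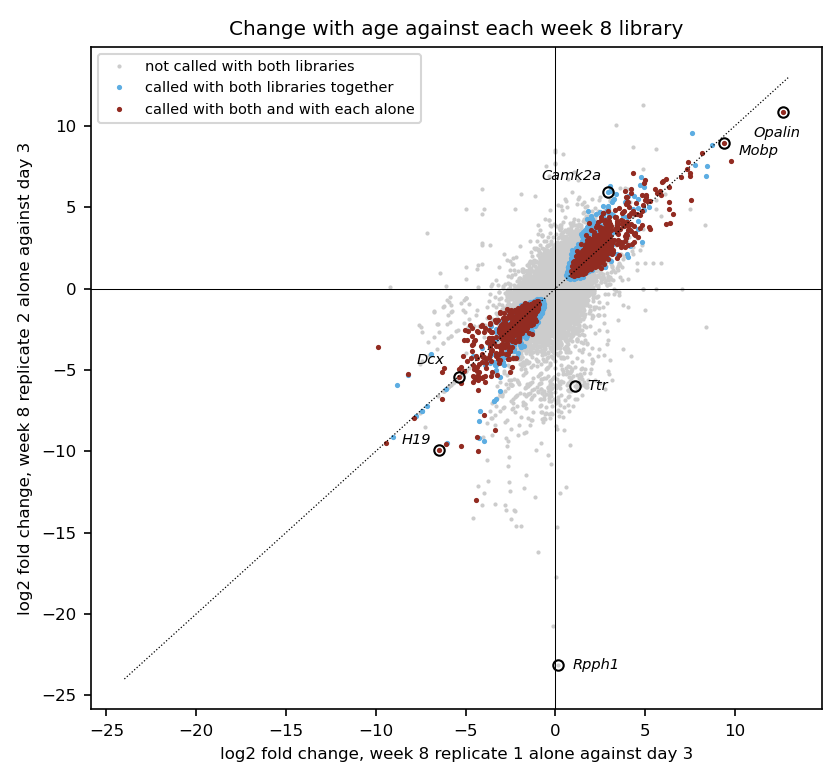
Log2 fold change against day 3 of every gene tested with week 8 replicate 1 alone (horizontal) and with week 8 replicate 2 alone (vertical), with the line of equal change dotted. Genes called in all 3 comparisons (1077, dark red) have the same sign against both by the way they were chosen, and some lie far from the line, such as H19 at -6.47 against replicate 1 and -9.91 against replicate 2. Camk2a is farther from day 3 in replicate 2, and Rpph1 lies at 0.16 against replicate 1 and -23.11 against replicate 2.

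The largest rises among genes called in all 3 comparisons, with at least 10 CPM at week 8, were mostly genes of myelin. Unnamed gene models, pseudogenes, small RNAs, Xist and Y-linked genes were left out of this ranking. Mobp, which encodes a myelin structural protein (chr9:120149707-120181484, plus strand), stood at 0.55, 0.913, 509 and 365 CPM and rose by 9.22 ± 0.41 (adjusted p = 0.00113). Opalin, an oligodendrocyte membrane protein (chr19:41061710-41077113, minus strand), had no count at day 3 and 52.7 and 13.6 CPM at week 8. It was at least 66.1-fold higher at week 8, taking 3 counts in the shallower day 3 library (0.206 CPM) as the floor. Others among the 10 largest rises were Mal, Hapln2, Fa2h, Nkx6-2, Sec14l5, Etnppl and Hapln4, of which Mal, Hapln2, Fa2h and Nkx6-2 are also oligodendrocyte genes and Hapln4 is a link protein of the perineuronal matrix. Etnppl, an enzyme of lipid metabolism found in astrocytes, was at 0.0688, 0.228, 26.1 and 25.7 CPM. The week 8 replicates of Etnppl agreed closely, whereas those of Hapln4 were 17.3 and 117 CPM.

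The largest falls, ranked with the same genes left out and at least 10 CPM at day 3, were of H19, Dcx, Trim67, Dpysl3, B3gnt5, Pbk and 4 histone genes. H19, an imprinted long non-coding RNA of fetal growth (chr7:142575529-142578143, minus strand), stood at 96.2, 125, 1.23 and 0.105 CPM (-7.45 ± 1.03, adjusted p = 0.00916). Dcx, the doublecortin of migrating neurons (chrX:143855842-143933311, minus strand), was at 923, 1028, 23.2 and 22.1 CPM. It fell by 5.40 on the log2 scale (SE 0.35, adjusted p = 0.00219), and its week 8 replicates were nearly equal. Dpysl3, a collapsin response mediator of growing axons, went from 2241 and 2433 to 68.2 and 69.1 CPM. Pbk, a mitotic kinase, went from 30.2 and 21.1 to 1.15 and 0.526 CPM. The histone genes Hist1h3b, Hist1h3g, Hist1h2an and Hist1h2ah fell in all 3 comparisons but were far lower in week 8 replicate 2 than in replicate 1, for example Hist1h3b at 65.3, 58.1, 2.84 and 0 CPM.

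**Figure D2:**
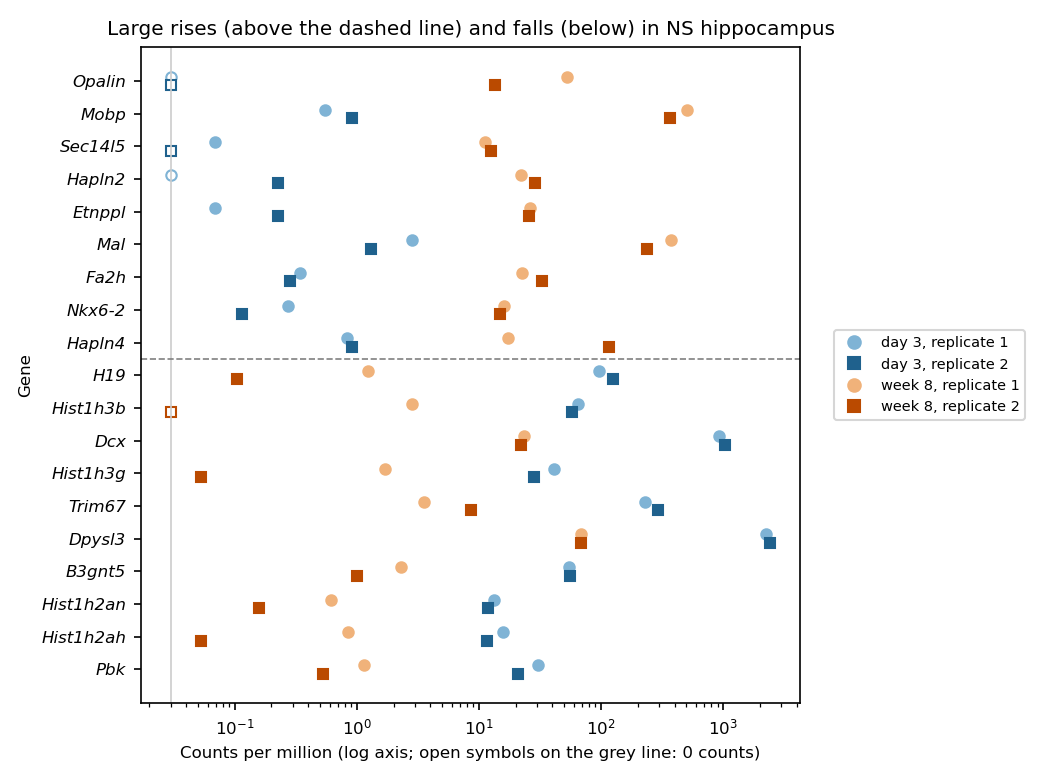
CPM (log axis) in each of the 4 NS libraries for 9 of the 10 largest rises and the 10 largest falls among genes called in all 3 comparisons, with open symbols on the grey line for 0 counts. Both week 8 symbols lie on the same side of both day 3 symbols because the choice of genes required no overlap between ages. The histone genes and H19 are lower in week 8 replicate 2 than in replicate 1.

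Leaving out 1 day 3 library took away most calls: edgeR called 69 genes without day 3 replicate 1 and 51 without day 3 replicate 2, while 2968 and 2990 passed an unadjusted p of 0.05. Against a single week 8 library it then called 0 genes, while 2459 and 2433 passed an unadjusted p of 0.05 for replicate 1 alone, and 4214 and 4263 for replicate 2 alone. The 51 genes were called whichever of the 8 libraries was left out, 17 higher and 34 lower. Those higher included Mobp, Mal, Mag, Nkx6-2 and Bcas1 of oligodendrocytes, and Arc. Among the 34 lower were Dcx, Dpysl3, Sox11 and Draxin of young neurons, and Mki67, Cdk1, Rrm2 and Pbk of dividing cells. Outside the lists and chosen after their values were seen were Cd24a and St8sia2. Cd24a, a surface protein of immature neurons, stood at 489, 534, 24.2 and 12.2 CPM. St8sia2, which adds polysialic acid to the adhesion molecule NCAM, stood at 90.0, 91.0, 3.84 and 2.05 CPM. In both genes the week 8 libraries lay far below both day 3 libraries. For all genes named below that are not among the 51, the call was lost without at least one library.

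Members of the gene lists below that the naming rule did not choose were picked after their values were seen. For comparison with each list, 7.7% of all genes rose and 6.44% fell with both libraries. Genes of the dividing cell fell almost as a whole. Of 30 proliferation genes, 26 fell and none rose with both libraries, 22 fell against week 8 replicate 1 alone (3.59% of all genes did) and 25 against replicate 2 alone (10.5% of all genes). Their median log2 fold change was -2.87 with both, -2.71 and -2.91 with each alone, against 0.04, -0.02 and -0.08 over all genes tested. Cdk1, the mitotic cyclin-dependent kinase, stood at 37.2, 27.4, 1.61 and 0.632 CPM and fell by 4.85 on the log2 scale (SE 0.47, adjusted p = 0.00408). Top2a, the topoisomerase that untangles chromosomes before division, stood at 118, 82.8, 6.52 and 1.84 CPM. Mki67, whose protein coats mitotic chromosomes, was at 64.9, 46.7, 6.22 and 4.69 CPM. In these 3 genes both day 3 libraries were above both week 8 libraries, and week 8 replicate 2 was the lowest. Rrm2, which makes the deoxynucleotides of replicating DNA, was nearly equal in the 2 week 8 libraries, with 28.0, 25.5, 2.15 and 2.32 CPM (-3.55 ± 0.27, adjusted p = 0.00244).

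The subunits of the MCM helicase, which opens DNA at replication origins, had fitted changes between -0.70 and -2.31. Mcm5 was at 25.6, 23.5, 5.45 and 4.26 CPM (-2.31 ± 0.25), and Mcm6 at 51.2, 48.0, 24.6 and 14.8 CPM (-1.31 ± 0.28). Mcm4 did not pass, at 23.9, 21, 14.9 and 12.2 CPM (-0.70 ± 0.22, adjusted p = 0.0793). Pcna, the sliding clamp of DNA polymerase, was at 118, 112, 61.2 and 36.5 CPM (-1.21 ± 0.29, and adjusted p of 0.0887 against replicate 1 alone). The other 3 members not called were Aurka, Plk1 and E2f1, and E2f1 was the only 1 of the 30 with overlapping ages, at 5.78, 6.39, 4.45 and 7.58 CPM.

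Among 18 genes of neural stem cells and radial glia, 4 (22.2%) fell and none rose, against 6.44% of all genes that fell. The list's median was -0.45. Nes, the intermediate filament of progenitors, stood at 90.5, 79.4, 11.5 and 7.58 CPM (-3.13 ± 0.36, adjusted p = 0.00661). Fabp7, the brain lipid binding protein of radial glia, stood at 3061, 2324, 145 and 14.5 CPM. It fell by 5.06 on the log2 scale (SE 1.26, adjusted p = 0.0439), with an adjusted p of 0.0708 against replicate 1 alone and 0.0184 against replicate 2 alone. The other 2 that fell were Vim and Tnc. Sox2, the transcription factor kept by adult stem cells and by astrocytes, had overlapping ages, with 56.5, 49.3, 42.8 and 50.3 CPM (-0.16 ± 0.30). Notch1, the receptor that keeps stem cells undifferentiated, overlapped as well, with 49.2, 39.0, 46.2 and 52.8 CPM. Of the 4 that fell, Nes held against each week 8 library alone, and Vim and Tnc, like Fabp7, against replicate 2 alone only.

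Many genes of young neurons fell. Of 24 genes of intermediate progenitors and immature neurons, 12 fell and none rose, and the list's median was -1.66 with both libraries, -2.30 with replicate 1 alone and -1.54 with replicate 2 alone. Sox11, a factor that switches on neuronal genes after the last division, was at 378, 457, 33.0 and 24.8 CPM (-3.83 ± 0.34, adjusted p = 0.00333). Draxin, a guidance molecule, was at 42.4, 45.4, 2.15 and 1.53 CPM (-4.56 ± 0.41). Tubb3, the neuronal tubulin, was at 1395, 1623, 177 and 282 CPM (-2.69 ± 0.31). Sox4, Igfbpl1, Stmn1, Stmn2, Dpysl5, Neurod6 and Elavl2 also fell, besides Dcx and Dpysl3, and 10 of the 12 fell in all 3 comparisons (3% of all genes did), the exceptions being Neurod6 and Elavl2. Transcription factors of neuronal lineage were less uniform. Eomes, the factor of intermediate progenitors, was low in all libraries, with 9.22, 5.2, 0.998 and 1.79 CPM (-2.32 ± 0.74, adjusted p = 0.0835). Prox1, which marks dentate granule neurons and stays on in adults, stood at 23.4, 15.3, 46.1 and 66.1 CPM (1.57 ± 0.54, adjusted p = 0.1). Neurod2, a factor of excitatory neurons, had overlapping ages, with 51.0, 54.9, 47.7 and 235 CPM.

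Of 28 genes of the growth cone and of axon guidance, 9 fell and 1 rose. Medians were -0.89 with both libraries, and -0.85 and -0.80 against replicate 1 and replicate 2 alone. Gap43, a growth cone protein, stood at 642, 647, 91.8 and 126 CPM (-2.53 ± 0.27, adjusted p = 0.00535). Marcksl1, which links actin to the membrane, stood at 716, 752, 55.3 and 86.4 CPM (-3.34 ± 0.32). Both kept their call against each week 8 library alone. Guidance receptors had smaller fitted changes: Robo1, a receptor for Slit, was at 138, 164, 84.6 and 68.1 CPM (-0.96 ± 0.22) and Dcc, a receptor for netrin, at 92.8, 85.9, 48.5 and 50.9 CPM (-0.82 ± 0.18). Epha3, an ephrin receptor, fell from 70.2 and 71.6 to 20.9 and 10.8 CPM (-2.14 ± 0.43). None of these 3 receptors was called against replicate 1 alone. The 1 gene that rose was a ligand, Slit3, at 11.2, 16.3, 35.3 and 78.8 CPM (2.08 ± 0.45, adjusted p = 0.029, and 0.069 against replicate 1 alone). Slit1 was at 42.1, 49.2, 81.0 and 354 CPM and was called against replicate 2 alone only (adjusted p = 0.0253). Crmp1, a further collapsin response mediator, was called lower against replicate 1 alone (adjusted p = 0.0443) and not with both libraries, at 845, 954, 92.6 and 292 CPM.

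Of 15 tested genes of fetal growth, 6 fell and none rose, with a median of -0.96. Besides H19 they were Igf2bp1 and Igf2bp2, which bind fetal messenger RNAs, Hmgb2, Mest and Cdkn1c. Hmgb2, a chromatin protein of dividing cells, stood at 59.5, 53.9, 7.60 and 6.16 CPM (-3.02 ± 0.26, adjusted p = 0.00319). Igf2, the growth factor imprinted together with H19, did not pass and was low in 1 library, with 224, 218, 182 and 45.6 CPM (-0.93 ± 0.57, adjusted p = 0.3). The fitted change of Igf2 was -0.27 ± 0.25 against replicate 1 alone and -2.25 ± 0.28 against replicate 2 alone. H19 had 16 counts in week 8 replicate 1 and 2 in replicate 2, so its level there is imprecise.

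**Figure D3:**
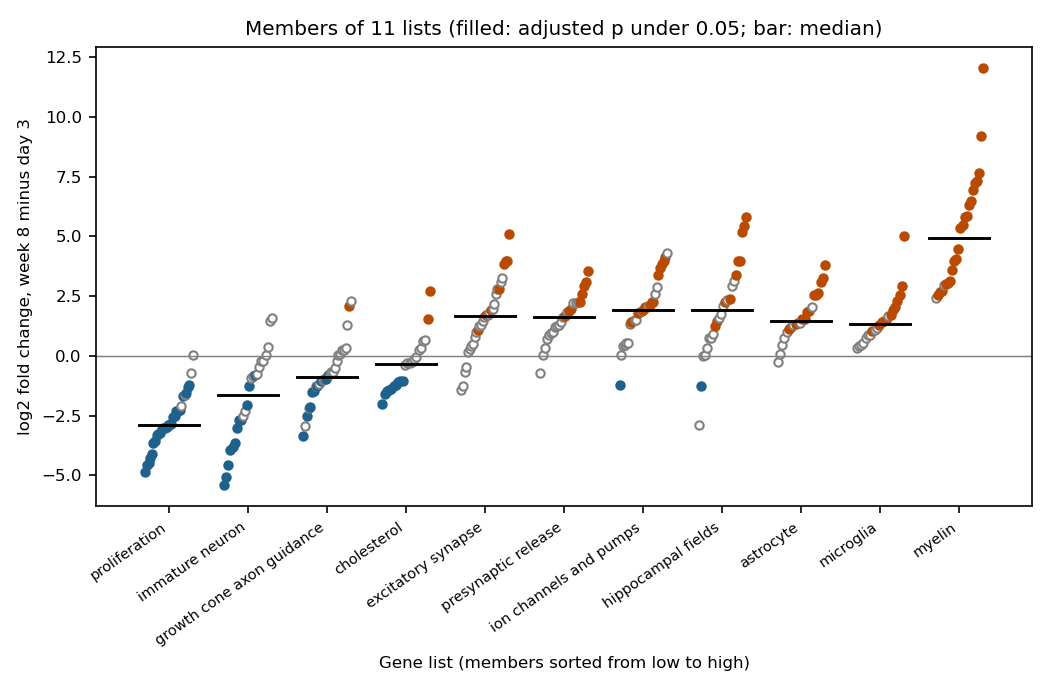
Log2 fold change, week 8 minus day 3, of each tested member of 11 gene lists with both week 8 libraries, filled where the adjusted p was under 0.05, with the median as a bar. Nearly all proliferation genes are filled and below 0, nearly all myelin genes are filled and above 0, and the synaptic lists lie mostly above 0 with many open symbols.

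Most myelin genes rose. Of 24 members, 22 rose and none fell with both libraries, 24 rose against replicate 1 alone and 22 against replicate 2 alone, and no member overlapped between ages, against 29.2% of all genes that were higher without overlap. The median log2 fold change was 4.92 with both and 4.72 and 4.33 with each alone. Summed over the list, the level was 292, 298, 7448 and 6672 CPM. Mbp, the myelin basic protein, stood at 39.8, 46.4, 1992 and 2940 CPM (5.87 ± 0.43, adjusted p = 0.00244). Mag, an adhesion protein between myelin and axon, stood at 2.41, 3.48, 150 and 172 CPM (5.80 ± 0.46). Myrf, the transcription factor that starts myelination, stood at 1.38, 1.14, 35.8 and 66.1 CPM (5.37 ± 0.43). No member of the list exceeded 51.9 CPM in a day 3 library. Not called with both were Aspa and Apod, which were higher in week 8 replicate 1 than in replicate 2. Aspa, which splits N-acetylaspartate, was at 4.61, 2.85, 48.7 and 9.00 CPM, and Apod, a lipid carrier, at 51.9, 44.9, 416 and 95.0 CPM.

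Fewer genes of oligodendrocyte precursors were called. Of 14 precursor genes, 4 rose and none fell, with a median of 1.33. Pdgfra, the receptor that defines the precursor, was slightly lower in both week 8 libraries and not called, at 103, 106, 82.3 and 81.9 CPM (-0.32 ± 0.30, adjusted p = 0.51). Those that rose are expressed as precursors differentiate or are shared with mature cells: Bcas1, Enpp6, Neu4 and Sox10. Bcas1, which marks newly forming oligodendrocytes, stood at 4.26, 5.77, 100 and 136 CPM (4.58 ± 0.33, adjusted p = 0.00244). Sox10, a factor of the whole lineage, stood at 6.53, 5.77, 28.9 and 54.5 CPM (2.79 ± 0.39). All 4 were called in all 3 comparisons (3.73% of all genes were, upward).

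Of 22 astrocyte genes, 14 rose and none fell, with medians of 1.45, 1.41 and 1.55 for both, replicate 1 and replicate 2. Genes that clear transmitter were among them. Slc1a2, the main glutamate transporter of the forebrain, stood at 348, 288, 2460 and 3430 CPM (3.24 ± 0.33, adjusted p = 0.0048). Glul, which turns the glutamate taken up into glutamine, stood at 390, 365, 2563 and 2011 CPM (2.63 ± 0.28). Slc1a3, the glutamate transporter already used by radial glia, was at 355, 259, 592 and 806 CPM (1.22 ± 0.31, adjusted p = 0.045, and 0.124 against replicate 1 alone). Aldh1l1, a folate enzyme used to label astrocytes of all ages, was not called, at 106, 99.3, 90.1 and 77.7 CPM. Gfap, the filament of astrocytes and adult stem cells, rose with both libraries and against replicate 1 alone, at 285, 181, 710 and 465 CPM (1.36 ± 0.32), with an adjusted p of 0.0638 against replicate 2 alone. Clu, a secreted chaperone, and S100b, a calcium-binding protein, also rose, Clu from 94.5 and 115 to 684 and 1075 CPM and S100b from 16 and 9.02 to 254 and 89.1 CPM.

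Of 22 microglial genes, 12 rose and none fell, with a median of 1.34. The purine receptor P2ry12 stood at 10.5, 7.99, 38.1 and 30.7 CPM (1.92 ± 0.25, adjusted p = 0.00808). Tmem119, which appears as microglia mature, stood at 4.88, 3.71, 18.6 and 30.6 CPM (2.55 ± 0.41). Both were also called against each week 8 library alone. Aif1, a marker of the same cells, and Tyrobp, a signalling adaptor, were higher in week 8 replicate 1 and below both day 3 libraries in replicate 2. Tyrobp was at 20.8, 15.4, 36.3 and 9.11 CPM. Summed over the list, microglial genes stood at 305, 239, 740 and 711 CPM. Of 24 genes of vessels and mural cells, 4 (16.7%) rose and none fell, against 7.7% of all genes that rose. Against replicate 2 alone 3 rose, the same 12.5% as of all genes, and 1, Itm2a, fell. Only Flt1, a receptor of vascular endothelial growth factor, was called in all 3 comparisons, at 3.58, 4.74, 18.9 and 20.3 CPM (2.26 ± 0.36). Slc2a1 and Ly6c1 had adjusted p-values of 0.104 and 0.0853 against replicate 1 alone, and Acta2 one of 0.0663 against replicate 2 alone. Cldn5, the tight junction protein of endothelium, was not called, at 44.0, 28.8, 21.5 and 20.8 CPM.

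Some genes of excitatory synapses rose, and how many depended on the week 8 library. Of 30 genes, 8 rose and none fell with both libraries, 3 rose against replicate 1 alone (4.41% of all genes did) and 20 against replicate 2 alone (12.5% of all genes). The median was 1.65 with both, 0.56 against replicate 1 and 2.14 against replicate 2, and the summed level was 3867, 4069, 7250 and 20935 CPM. Without overlap between ages, 20 members were higher (29.2% of all genes) and 3 lower (32.6% of all genes). Camk2a, the kinase of synaptic plasticity, stood at 100, 80.1, 682 and 5325 CPM (5.10 ± 1.27, adjusted p = 0.0438). Its adjusted p was 0.111 against replicate 1 alone and 0.018 against replicate 2 alone. Slc17a7, the vesicular glutamate transporter of hippocampal pyramidal cells, stood at 72.6, 71.2, 338 and 1702 CPM (3.86 ± 0.89), with an adjusted p of 0.0826 against replicate 1 alone. Grin2a, the adult subunit of NMDA receptors, was called against each library, at 16.7, 14.4, 141 and 72.7 CPM (2.80 ± 0.49, adjusted p = 0.0174). Gria3, a subunit of AMPA receptors, was nearly equal in the 2 week 8 libraries, at 63.0, 65.6, 199 and 207 CPM (1.69 ± 0.19, adjusted p = 0.00573). The scaffold gene Shank3 stood at 40.8, 39.9, 56.9 and 485 CPM and Dlg4, the PSD-95 gene, at 164, 185, 212 and 969 CPM, and neither was called with both or against replicate 1 alone.

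Presynaptic genes followed the same order of sizes. Of 24 genes, 8 rose and none fell with both libraries, 5 rose against replicate 1 alone and 19 against replicate 2 alone, with medians of 1.64, 0.79 and 1.90. Snap25, a SNARE protein of vesicle fusion, stood at 244, 216, 1137 and 1610 CPM (2.61 ± 0.36, adjusted p = 0.00904). Syt1, the calcium sensor of release, stood at 353, 386, 981 and 1298 CPM (1.66 ± 0.26). Sv2b, a vesicle glycoprotein, was higher in replicate 1 than in replicate 2, at 158, 170, 636 and 554 CPM (1.89 ± 0.24). All 3 held against each library alone, as did Nsf and Vamp1. Syp, the vesicle protein synaptophysin, was called against replicate 2 alone only (adjusted p = 0.0222), at 208, 214, 436 and 1480 CPM.

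Against 7.7% of all genes that rose, 4 (22.2%) of 18 genes of inhibitory synapses rose, and none fell. Among them were the receptor subunits Gabra2, Gabra4 and Gabrd, each called in all 3 comparisons. Gabra4 stood at 31.4, 31.1, 95.9 and 96.4 CPM (1.65 ± 0.18, adjusted p = 0.00537). Gabrd, of extrasynaptic receptors in granule cells, stood at 2.48, 3.08, 15.9 and 21.4 CPM (2.77 ± 0.32). Gad1, which makes GABA, was not called, at 149, 123, 228 and 313 CPM (1.02 ± 0.34, adjusted p = 0.0896). Of 18 markers of interneurons, 5 rose and 2 fell (38.9% called, against 14.1% of all genes). The list's median was -0.17 with both libraries, -0.98 against replicate 1 alone and 0.63 against replicate 2 alone. Pvalb, the parvalbumin of fast-spiking cells, stood at 0.825, 0.685, 60.1 and 29.5 CPM (5.90 ± 1.00, adjusted p = 0.0157), and Vip at 3.64, 4.00, 31.2 and 17.2 CPM (2.69 ± 0.54). Lhx6, a transcription factor in the same list, fell, from 45.4 and 50.4 to 9.90 and 19.1 CPM (-1.69 ± 0.37). Sst, somatostatin, was not called, at 86.8, 78.7, 68.0 and 226 CPM.

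Many ion channels and pumps rose. Of 29 genes, 15 rose and 1 fell with both libraries, 11 rose against replicate 1 alone and 23 against replicate 2 alone. Kcna1, a potassium channel of axons, stood at 12.2, 16.3, 152 and 201 CPM (3.66 ± 0.31, adjusted p = 0.0031). Scn2b, an auxiliary sodium channel subunit, stood at 19.2, 17.3, 193 and 314 CPM (3.83 ± 0.35). Both held in all 3 comparisons. The 1 channel that fell was Scn3a, at 144, 156, 70.1 and 55.6 CPM (-1.23 ± 0.23, adjusted p = 0.0202, and 0.0579 against replicate 1 alone).

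Family members known as early or late in brain development were set side by side in 28 pairs, as CPM per kilobase of gene length, which allows levels of different genes to be compared. The ratio of the late to the early member was higher in both week 8 libraries than in both day 3 libraries in 19 of the 28. The late member was called higher in 9 pairs and the early member lower in 11, where over all genes 7.7% rose and 6.44% fell. Both happened only in Scn3a with Scn1a and Scn3a with Scn8a. These pairs share Scn3a, so its fall enters the 11 with each of them. Against the labels, the early member was called higher in 3 pairs and the late member lower in 3. In 6 pairs the order turned in every library, so that the early member led at day 3 and the late one at week 8. Scn3a was at 15.1, 16.4, 7.34 and 5.82 CPM per kb and Scn8a, a channel of mature axons, at 5.96, 6.64, 21.2 and 33.4 CPM per kb. The ratio of Scn8a to Scn3a was 0.395, 0.406, 2.88 and 5.74. Scn1a, another adult channel, rose from 34.7 and 39.9 to 165 and 110 CPM. The 3 sodium channels were thus the only members of the 28 pairs called in opposite directions.

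In the pairs described next at most 1 member was called, although in some the fitted change of the other member was also large. The NMDA receptor subunit Grin2b, of young synapses, was at 36.2, 40.2, 36.9 and 10.3 CPM per kb and not called, while Grin2a was at 3.70, 3.19, 31.2 and 16.1 CPM per kb. Their ratio, late over early, was 0.102, 0.0794, 0.846 and 1.56. The tubulin Tubb2b fell (-2.80 ± 0.66, adjusted p = 0.0381). Tubb4a, found in myelinating cells and adult neurons, had a fitted change of 2.01 (adjusted p = 0.0572). The ratio of Tubb4a to Tubb2b was 0.0417, 0.0415, 1.05 and 1.22. In the extracellular matrix, Tnc fell and Tnr was not called, and their ratio went from 0.254 and 0.381 to 5.22 and 15.9. The lectican Ncan fell (-1.50) and Bcan was not called, with a fitted change of 1.51 and a ratio of 0.320, 0.275, 1.4 and 3.08. Vamp1 over Vamp2 was higher at week 8 and the late member rose, yet Vamp2 remained the more abundant in every library, with a ratio of 0.0402, 0.0326, 0.158 and 0.0767. The chloride transporters that set the sign of GABA responses gave overlapping ratios of Slc12a5 over Slc12a2, at 2.11, 1.26, 1.64 and 8.33.

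**Figure D4:**
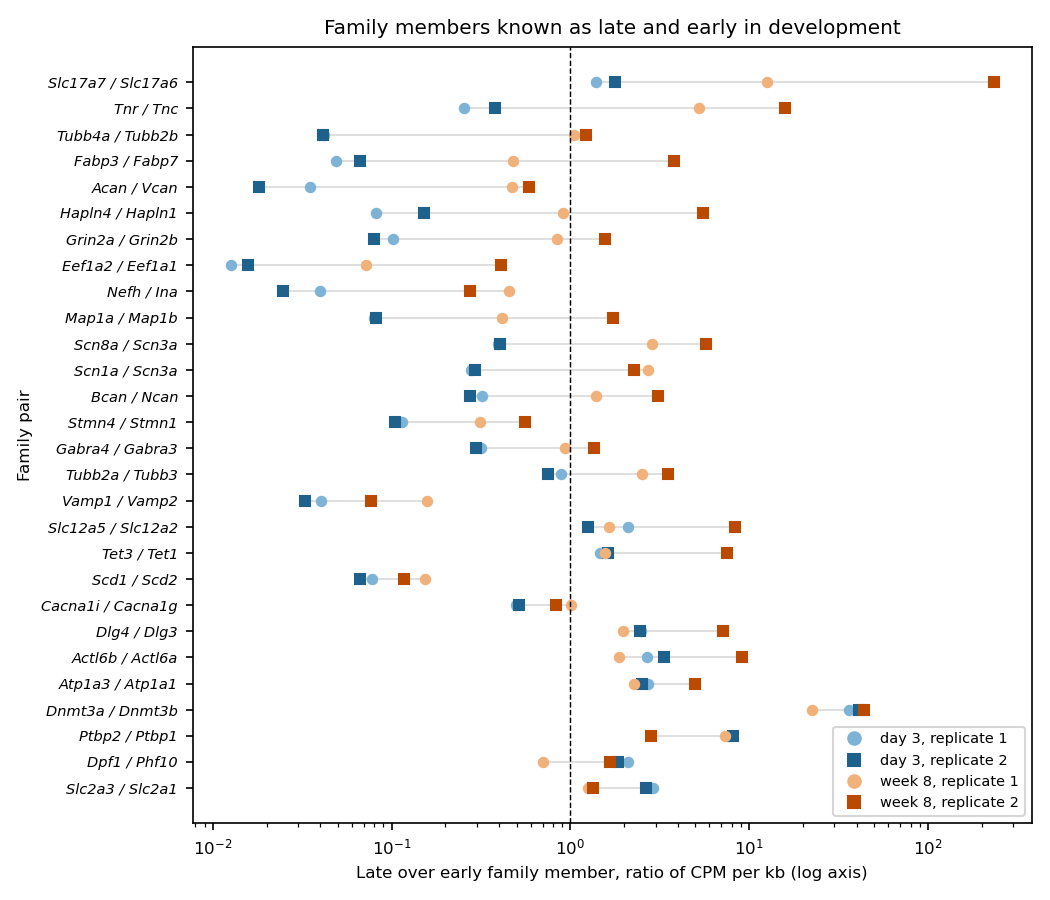
Ratio of the late to the early member of 28 family pairs in each NS library, from CPM per kb on a log axis, with equal levels at the dashed line, sorted by the size of the shift. In 19 pairs both week 8 symbols lie to the right of both day 3 symbols, and in 6 the 2 ages fall on opposite sides of the dashed line.

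Hippocampal fields were read with 24 marker genes, of which 10 rose and 1 fell with both libraries, and 6 rose in all 3 comparisons. Spink8, a marker of CA1, stood at 0.825, 0.457, 51.5 and 19 CPM (5.80 ± 0.62, adjusted p = 0.00537). Lct, a marker of dentate granule cells, stood at 0.963, 0.799, 28.7 and 46.1 CPM (5.43 ± 0.66). Tdo2, of mature granule cells, stood at 0.963, 0.628, 16.7 and 7.95 CPM (3.97 ± 0.52). These 3 were under 1 CPM in both day 3 libraries. C1ql2, of the mossy fibre pathway, rose with both libraries, at 2.27, 0.685, 29.8 and 74.2 CPM, with an adjusted p of 0.0813 against replicate 1 alone. The tissue label was also read with markers of neighbours. Of 14 thalamic and habenular genes none was called, of 13 striatal genes 4 (30.8%) fell, and of 13 neocortical genes 1 rose and 2 fell. Over all genes 7.7% rose and 6.44% fell, so a single rise in a list of this size is near that share. Of 11 hypothalamic genes 1 rose, the orphan receptor gene Gpr101 (2.53 ± 0.46, adjusted p = 0.0195), which was called in all 3 comparisons. Against replicate 2 alone the thalamic and habenular genes Zic1 and Zic4 were called lower (adjusted p = 0.0219 and 0.0331).

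The genes of DNA methylation included Tet1, named in the title of the series. Tet1 oxidises 5-methylcytosine (chr10:62804570-62908996, minus strand) and stood at 84.2, 88.0, 29.1 and 11.2 CPM. Both week 8 libraries were below both day 3 libraries, and the fall of 2.08 (SE 0.54) had an adjusted p of 0.04998, at the threshold. It was 0.122 against replicate 1 alone, 0.022 against replicate 2 alone, 0.203 without day 3 replicate 1 and 0.21 without day 3 replicate 2. Over all alternatives run it lay between 1.75e-05 and 0.446, and the fitted change of Tet1 stayed below 0 in each. Of 17 tested genes, 5 fell and 1 rose (35.3% called, against 14.1% of all genes). Dnmt3a, which sets new methyl marks, stood at 229, 254, 67.5 and 95.9 CPM (-1.53 ± 0.25, adjusted p = 0.0141). Dnmt1, which copies marks at replication, stood at 124, 134, 39.4 and 51.2 CPM (-1.47 ± 0.22). Uhrf1, the partner of Dnmt1 at the replication fork, stood at 23.6, 20.6, 1.76 and 1.79 CPM (-3.60 ± 0.29), and these 3 fell in all 3 comparisons. Idh1, which makes the cofactor of the TET enzymes, fell from 562 and 527 to 99.8 and 44.1 CPM. The 1 gene that rose was Mbd2, which binds methylated DNA, at 18.9, 18.1, 40.0 and 46.2 CPM, with an adjusted p of 0.0795 against replicate 1 alone.

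Of 14 tested genes of corticosteroid signalling, 3 (21.4%) rose and none fell, against 7.7% of all genes that rose. Nr3c2, the mineralocorticoid receptor, stood at 26.8, 13.1, 127 and 114 CPM (2.62 ± 0.37, adjusted p = 0.00931). Nr3c1, the glucocorticoid receptor, was not called, at 56.4, 55.3, 181 and 72.4 CPM (1.21 ± 0.60, adjusted p = 0.213). Hsd11b1, which regenerates active corticosteroid inside cells, stood at 6.12, 3.03, 58.2 and 33.0 CPM (3.34 ± 0.44), and Crhbp, which binds corticotropin-releasing hormone, was the third. Of 21 immediate early genes, 8 rose and none fell, and their median was 1.74. Against replicate 1 and replicate 2 alone it was 1.02 and 2.21. Arc, made at active synapses, stood at 6.12, 5.14, 89.2 and 84.1 CPM (3.97 ± 0.25, adjusted p = 0.00219). Fos, induced quickly by activity, was not called, at 6.81, 7.36, 13.4 and 7.53 CPM (0.58 ± 0.47). Bdnf, the neurotrophin, stood at 10.9, 6.05, 28.2 and 39.3 CPM (2.03 ± 0.46), with an adjusted p of 0.1 against replicate 1 alone.

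Metabolic lists went different ways. Of 22 genes of cholesterol handling, 10 fell and 2 rose. The list's median was -0.35 with both libraries, and -0.68 and -0.85 against replicate 1 and replicate 2 alone. The 10 were enzymes of synthesis, such as Fdps, which makes farnesyl diphosphate, at 223, 243, 61.9 and 50.1 CPM (-2.03 ± 0.21, adjusted p = 0.00502), and Hmgcs1, of the first committed steps, at 745, 797, 279 and 216 CPM (-1.61 ± 0.23). The 2 that rose move cholesterol rather than make it: Apoe, its carrier from astrocytes, at 759, 663, 2239 and 1787 CPM (1.53 ± 0.27), and Cyp46a1, which converts it for export from neurons, at 13.9, 16.6, 40.4 and 154 CPM (2.71 ± 0.65, adjusted p = 0.0823 against replicate 1 alone). Of 19 glycolytic genes, 11 rose and none fell. Their median was 1.23 with both libraries, and 0.87 and 1.16 against replicate 1 and replicate 2 alone. Eno2, the neuronal enolase, stood at 87.6, 94.9, 500 and 902 CPM (2.97 ± 0.42), and Aldoc, the aldolase of astrocytes, at 232, 180, 1345 and 1027 CPM (2.55 ± 0.33). Of 35 genes of the respiratory chain, 1 rose and none fell, with a median of -0.10. That 1 was Sdha, of succinate dehydrogenase, at 156, 151, 337 and 364 CPM (1.22 ± 0.19).

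Most ribosomal protein genes were lower at week 8 in both libraries and by more in replicate 2. Of 46 genes, 6 (13%) fell with both libraries, against 6.44% of all genes. The list's median was -1.15 with both libraries, and -0.75 and -2.03 against replicate 1 and replicate 2 alone. Their summed level was 39455, 34991, 22748 and 8646 CPM, and 44 of the 46 were lower without overlap, against 32.6% of all genes. Rplp0, of the ribosomal stalk, fell by 2.34 (SE 0.29, adjusted p = 0.00761), at 1461, 1344, 332 and 214 CPM. Because these families have many near-identical copies, their counts are uncertain. Genes of meninges, ependyma and choroid plexus, which could be carried along in a dissection, had no called member among 22, 16 and 17 with both libraries. Against replicate 2 alone, 6 meningeal genes and the ependymal genes Dynlrb2, Tekt1 and Mlf1 were called lower, and against replicate 1 alone the meningeal gene Dcn was called higher (adjusted p = 0.041). The meningeal list summed to 1570, 1387, 2863 and 722 CPM and the ependymal list to 216, 174, 237 and 92.4 CPM, so replicate 1 of week 8 was the highest and replicate 2 the lowest in both.

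**Figure D5:**
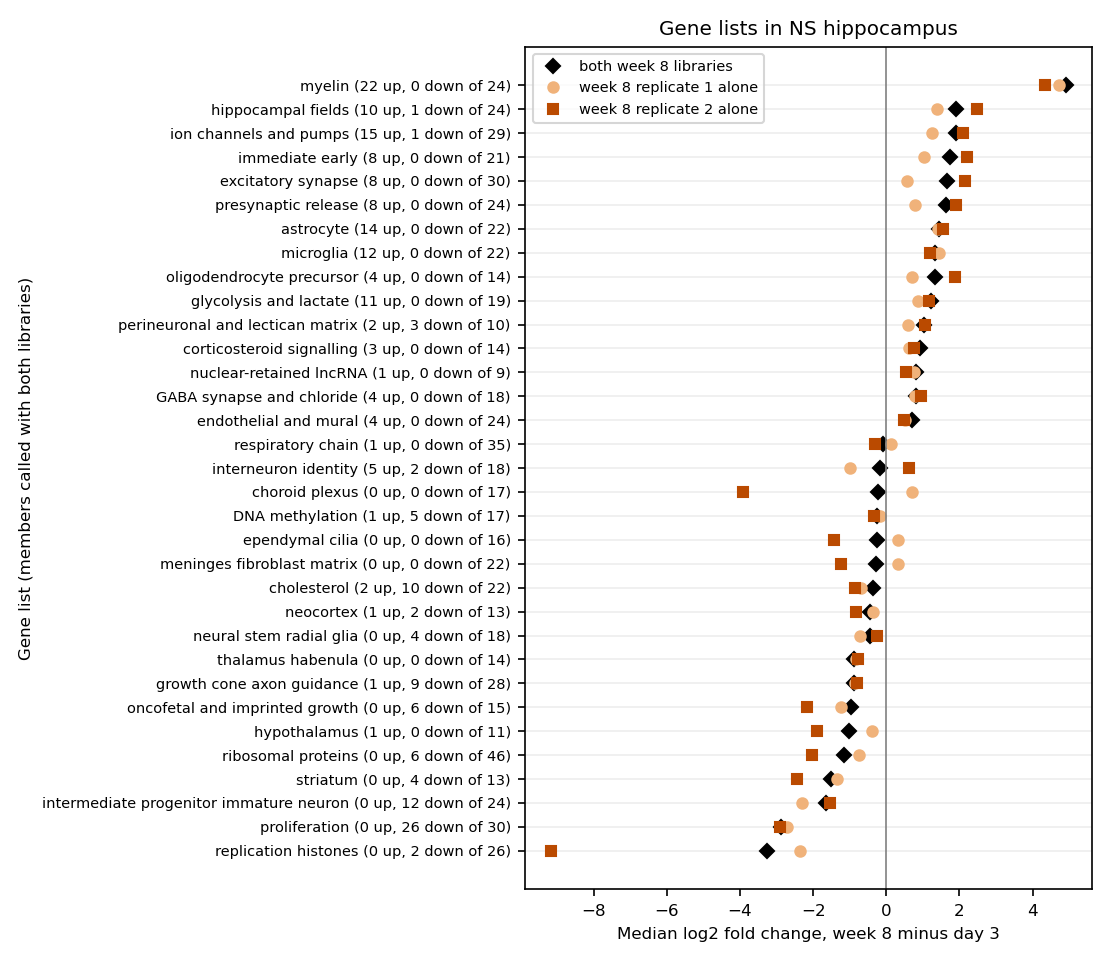
Median log2 fold change, week 8 minus day 3, of the tested members of 33 gene lists with both week 8 libraries (diamonds) and with each alone (circles and squares), with the number of members called up and down. Myelin, astrocyte, microglial and proliferation lists have nearly equal medians against each library, whereas the medians against the 2 libraries lie far apart for replication histones (-2.36 and -9.16) and choroid plexus (0.71 and -3.91).

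Genes called against 1 week 8 library only differed between the replicates. Among the most abundant called against replicate 1 alone and not against replicate 2 alone were Fasn, the fatty acid synthase, and Tubb2b. Fasn stood at 572, 642, 244 and 441 CPM, and its adjusted p was 0.036 against replicate 1 alone and 0.218 against replicate 2 alone. Among those called against replicate 2 alone and not against replicate 1 alone were Tmsb4x, which binds actin monomers, Actb, a cytoskeletal actin, and Cpe, which processes neuropeptides. Tmsb4x stood at 3665, 2944, 2158 and 919 CPM, with an adjusted p of 0.0345 against replicate 2 alone and 0.399 against replicate 1 alone. Cpe stood at 707, 593, 2031 and 3167 CPM and also rose with both libraries (2.03 ± 0.40, adjusted p = 0.0239). In Fasn, Tmsb4x and Cpe both week 8 libraries lay on the same side of both day 3 libraries.

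Whether the change with age differed between NS and IUGR offspring was tested as an interaction over the same genes. edgeR called 0 of 15999 genes, 82 passed at an unadjusted p under 0.05, and the smallest adjusted p was 1. This fit has no replicate term, so the difference between replicates that the NS and IUGR libraries of week 8 share (a correlation of 0.858 over 15312 genes) counts in it as spread. With a replicate block within each age, chosen after seeing the data, edgeR again called 0 genes and 413 passed at an unadjusted p under 0.05. A count of 0 with 2 libraries a group does not show that the ages differed alike in both treatments.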

How the data were processed

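Hippocampal RNA was sequenced from 8 libraries, of which the 4 of saline offspring are compared here, 2 per age. Per the labels' protocols, Trizol RNA was depleted of ribosomal RNA by Ribo-Zero before random priming and paired-end sequencing. Per the submitters' processing notes, reads were handled with HISAT2 2.1.0, featureCounts 1.6.1, cutadapt 1.16 and SAMtools 1.9 on the mm10 build. The settings of these tools, strand included, were not given in any source used here. The authors deposited raw read counts per gene and a gene length for 24421 symbols, in 1 table per age, and both tables were joined on the symbol. Of these genes, 4466 had no count in the 4 libraries. Counts were tested as deposited with edgeR 4.0.16 in R 4.3.3 (filterByExpr, TMM factors, quasi-likelihood F test). All 8 libraries were fitted with 4 group means, so both ages and both treatments share 1 estimate of spread for each gene. At least 2-fold apart were 1.08% of genes between the NS libraries of day 3 and 24.6% between those of week 8. The adjusted p-values of this fit rest on the pooled estimate although the ages differed in spread. The standard error is the size of the change divided by the square root of F. Benjamini-Hochberg adjustment ran over all genes tested. A single week 8 library was tested by leaving out the other, and the lone sample is then assumed to vary like the other groups. Because the ages stand in separate tables and the labels give no date or batch, age and any batch between the tables cannot be told apart. CPM is the count divided by the library total, and CPM per kb divides it by the deposited length.

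Members, gene lists and comparisons were chosen with earlier results of these data known. The genes named are the 10 largest rises and 10 largest falls called in all 3 comparisons with a mean of at least 10 CPM at the higher age, up to 4 called members of each list in each direction, both members of the family pairs, the most abundant genes called against 1 week 8 library only, and Tet1, Nr3c1 and Nr3c2. The largest rises and falls also had to show no overlap of CPM between ages. Unnamed gene models, pseudogenes, small RNAs, Xist and Y-linked genes were left out of them. Other genes named were picked after their values were seen. Some genes that this rule names, and 1 family pair, are not reported here. Alternatives were other size factors and filters, DESeq2 1.42.0, limma 3.58.1 with voom, the 4 libraries alone, a replicate block and leaving out each library, with 7 more chosen after seeing the data. The scripts were tested on simulated counts. Promoter windows came from RefSeq on GRCm38.p6, and gene coordinates from the GENCODE annotation of GRCm38.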

Additional observations from a re-analysis of the deposited data

How the results depend on the processing

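With both week 8 libraries, 2263 genes were called. The count stayed within 1.5 times of this under 2 other size factors, 2 other filters, voom and a minimum change. None of the 2263 turned its direction under any alternative run. All 2263 had no overlap of CPM between ages and the same sign against each week 8 library alone. A turn was therefore unlikely from the start, and its absence is no separate support. DESeq2 on all libraries gave 3901 calls with both libraries, 2624 with replicate 1 alone and 1934 in all 3 comparisons. edgeR on the 4 NS libraries alone gave 310 with both, 6905 with replicate 1 alone, 9891 with replicate 2 alone and 310 in all 3, and DESeq2 on the same libraries gave 4749, 7567 and 2226 for the last 3. Leaving out 1 library at a time gave between 51 and 3801 calls with both libraries, 0 and 6231 with replicate 1 alone, 0 and 9520 with replicate 2 alone, and 0 and 2436 in all 3. The lowest counts came without a day 3 NS library. Without 1 IUGR day 3 library, 822 or 824 genes were called with both. Chosen after seeing the data, leaving out both week 8 replicate 1 libraries gave 9520 calls, and leaving out both replicate 2 libraries gave 6201. Leaving out both day 3 replicate 1 or both replicate 2 libraries gave 0 calls by edgeR in each of the 4 results, while 1830 and 1791 genes passed an unadjusted p of 0.05 with both week 8 libraries, 1017 and 1071 with replicate 1 alone and 1745 and 2069 with replicate 2 alone. The estimate of spread changed with the libraries fitted. As edgeR's common coefficient of variation between replicates it was 0.374 in the main fit. It was 0.155 without both week 8 replicate 1 or both week 8 replicate 2 libraries, where no pair of week 8 replicates was left to estimate it. Without both day 3 replicate 1 or both day 3 replicate 2 libraries it was 0.501 and 0.5. The cause of the changes in the number of calls was not tested.

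Replicate numbers are shared between the ages, and the labels do not say whether they pair the samples. The differences between replicates correlated at 0.016 between the NS groups over 15312 genes. That value cannot decide it, because the difference between the week 8 replicates is largely 1 shared with IUGR (a correlation of 0.858). With a replicate block over all libraries, 3009 genes were called with both, 474 with replicate 1 alone, 1515 with replicate 2 alone and 441 in all 3. A block within the NS libraries gave 1102. In the test of whether the change with age differed between treatments, edgeR called 0 genes with a block over all libraries, where 71 passed an unadjusted p of 0.05, or within each age.

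Of 172 genes named and tested, 123 were called and none of these turned its direction, which was unlikely from the start for any called gene. Among genes not called, the log2 fold change turned for Ttr (0.11) to -0.01 with voom, -1.74 and -0.12 with a replicate block over all or NS libraries, -5.98 without both week 8 replicate 1 libraries and -0.89 without both day 3 replicate 1 libraries, and for E2f1 (0.02) to -0.08 with upper-quartile factors, -0.00 with voom, -0.03 with the NS block, -0.43 without both week 8 replicate 2 libraries and -0.07 without both day 3 replicate 1 libraries. Tyrobp turned to -0.00 with voom and -0.96 without both week 8 replicate 1 libraries, where Aif1 turned to -0.56, Malat1 to -1.54 and Slc12a2 to -0.13. Without both week 8 replicate 2 libraries Miat turned to -0.47, Neurod2 to -0.13, Rpph1 to 0.17 and Sst to -0.27, and without both day 3 replicate 2 libraries Xist turned to 1.20. Leaving out single libraries moved the log2 fold change between -0.57 and 1.57 for Aif1, -0.44 and 0.34 for E2f1, -1.54 and 1.66 for Malat1, -0.48 and 2.36 for Miat, -0.14 and 2.18 for Neurod2, -23.11 and 0.16 for Rpph1, -0.13 and 0.95 for Slc12a2, -0.27 and 1.48 for Sst, -5.98 and 5.70 for Ttr, -0.96 and 1.01 for Tyrobp and -8.81 and 1.17 for Xist.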

Other observations

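Further genes of the adult tissue moved between the ages. Neat1, a nuclear long non-coding RNA that builds paraspeckles, stood at 13.1, 15.3, 113 and 70.1 CPM in the order used above (2.71 ± 0.40, adjusted p = 0.011 by edgeR). It was the only 1 of 9 long non-coding RNAs that was called with both week 8 libraries or with replicate 1 alone, while Meg3, Miat and Snhg11 were also called higher against replicate 2 alone. Malat1, in the same list, overlapped between ages at 2749, 3087, 9146 and 981 CPM. Of 10 genes of lecticans, link proteins and tenascins, 2 rose and 3 fell. Vcan, the versican of immature matrix, fell from 177 and 271 to 27.6 and 28.9 CPM (-2.96 ± 0.40, adjusted p = 0.00865), and its fall held against each week 8 library alone. Acta2, the smooth muscle actin of vessels, stood at 2.96, 3.65, 19 and 11.3 CPM (2.22 ± 0.52, adjusted p = 0.0369), with an adjusted p of 0.0663 against week 8 replicate 2 alone.

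The differences between replicate 1 and replicate 2 correlated at 0.858 over 15312 genes between the NS and the IUGR libraries of week 8, and at -0.076 between those of day 3. The part of that shared difference in the results above was not tested.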
